A study of Spodoptera frugiperda with 15 samples.

Results

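Of the 3 genes described here, LOC118269154 and LOC118269215 are annotated as acyl-CoA Delta(11) desaturase-like, and LOC118282375 is annotated as elongation of very long chain fatty acids protein 7-like. They are 3 of the 20784 genes measured in whole bodies of the fall armyworm, *Spodoptera frugiperda*, a moth whose larvae are crop pests. They were chosen by their measured levels in these libraries, for near loss with emamectin benzoate and tetrazolidamide alone, so their levels against control are a description and carry no test. The 15 RNA-seq libraries fall into 5 groups of 3, all wild type: a control and insects treated with emamectin benzoate, tetrazolidamide, cyantraniliprole or spinetoram, which are insecticides. Dose, time, stage, sex and the number of insects per library are not given in the sources used here. Nothing in the labels says that replicates came from separate animals, so p-values measure the spread between these libraries only.

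Acyl-CoA desaturases put a double bond into the fatty acyl chain of a coenzyme A thioester, and the Delta number names the carbon where the bond is set. In moths, Delta(11) desaturases are best known from the female pheromone gland, where they make unsaturated precursors of sex pheromones. Elongases carry out the condensing step that lengthens fatty acyl chains, and in insects very long chains feed into the hydrocarbons and waxes of the cuticle. Fatty acyl-CoA reductases, which make alcohols from such chains, act downstream in both routes. None of the 3 genes has a role established by these data, since the descriptions are those of the deposited table.

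The genes lay at 2 places. Both desaturase genes were on the reverse strand of sequence NC_049721.1, LOC118269154 at 2819585 to 2829594 and LOC118269215 at 3116248 to 3129873. The elongase gene was on the forward strand of NC_049712.1 at 2213660 to 2217816. These positions are the deposited table's own, and the genome build is not given in the sources used here.

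LOC118269154 had the highest control level of the 3 per unit of transcript length. Its level was 85.7, 20.1 and 199 CPM (counts scaled to the depth of each library) in control libraries 1, 2 and 3. With emamectin benzoate it was 0.761, 0.335 and 0.206 CPM, and with tetrazolidamide 1.09, 1.13 and 0.455 CPM. With cyantraniliprole it was 37.8, 117 and 33.3 CPM, and with spinetoram 87.5, 72.6 and 103 CPM. All 6 emamectin benzoate and tetrazolidamide libraries lay below all 9 others, while the cyantraniliprole and spinetoram libraries lay inside the range of the controls. The control mean was 102 ± 90 CPM (SD, n = 3). The emamectin benzoate mean was 0.434 ± 0.29 CPM, 234-fold lower, and the tetrazolidamide mean 0.891 ± 0.38 CPM, 114-fold lower. Cyantraniliprole stood at 61.7% and spinetoram at 86.2% of the control mean.

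LOC118269215, the second desaturase-like gene, was low in the same 6 libraries. The 3 controls held 45.0, 12.7 and 112 CPM, the emamectin benzoate libraries 0.614, 0.0535 and 0.279 CPM, and the tetrazolidamide libraries 0.536, 0.458 and 0.0976 CPM. The cyantraniliprole libraries held 31.9, 121 and 29.3 CPM and the spinetoram libraries 51.2, 50.3 and 57.0 CPM. The 6 low libraries again lay below the other 9, and the highest of all 15 was cyantraniliprole 2 and not a control. Group means were 56.6 ± 51 CPM in control, 0.316 ± 0.28 with emamectin benzoate (179-fold lower) and 0.364 ± 0.23 with tetrazolidamide (156-fold lower), each as SD with n = 3. The cyantraniliprole mean was 107% and the spinetoram mean 93.3% of control.

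LOC118282375, the elongase-like gene, kept a measurable level with tetrazolidamide. It was counted at 30.9, 8.63 and 68.3 CPM in control and at 1.78, 1.27 and 1.19 CPM with tetrazolidamide. With emamectin benzoate it was 0.361, 0 and 0.162 CPM, where the count of 0 in library 2 allows up to 0.161 CPM (3 read pairs, counting error only). Cyantraniliprole gave 7.67, 57.6 and 19.4 CPM, and spinetoram 33.4, 29.7 and 37.2 CPM. Every tetrazolidamide library was thus above every emamectin benzoate library, and both groups were below the remaining 9. Cyantraniliprole 1 was the lowest of those 9, slightly under the lowest control. The mean fell from 35.9 ± 30 CPM in control to 0.174 ± 0.18 CPM with emamectin benzoate, 206-fold, and to 1.41 ± 0.32 CPM with tetrazolidamide, 25.4-fold (SD, n = 3). It was 78.5% of control with cyantraniliprole and 93.0% with spinetoram.

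**Figure D1:**
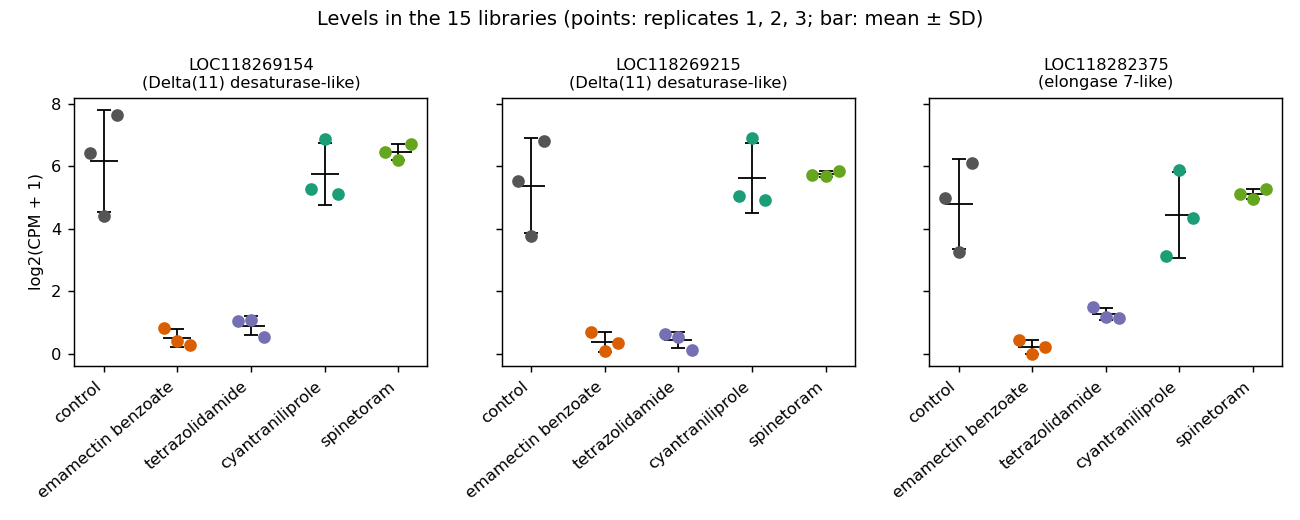
Level of each of the 3 genes in the 15 libraries, as log2(CPM + 1), with replicates 1 to 3 as points and mean ± SD as bars. The emamectin benzoate and tetrazolidamide libraries are all at or below 1.78 CPM, and the other 9 are all at or above 7.67 CPM.

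In all 3 genes, the 3 libraries of emamectin benzoate and the 3 of tetrazolidamide lay below all 3 controls, as did 11.7% and 18.4% of all tested genes. The same shares were 10.1% with cyantraniliprole and 9.96% with spinetoram, where only the elongase in cyantraniliprole 1 was below the lowest control of its gene. By edgeR's quasi-likelihood test at an adjusted p under 0.05, 4.09% of tested genes changed with emamectin benzoate, 22.3% with tetrazolidamide, 2.62% with cyantraniliprole and 4.01% with spinetoram. Because these contrasts chose the genes, nothing is read from those shares. The comparisons also share the control libraries. The gap between the lowest of the 9 high libraries and the highest of the 6 low ones was 17.9-fold for LOC118269154, 20.7-fold for LOC118269215 and 4.31-fold for LOC118282375. Over all 15505 tested genes, 184 (1.19%) had all 6 low libraries below the other 9, and 9 (0.058%) had a gap over 5-fold, both desaturases among them. In whole bodies, fewer cells of a type and less RNA per cell cannot be told apart.

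The low levels rest on few reads. Over the 3 emamectin benzoate libraries, LOC118269154 had about 24 read pairs, LOC118269215 about 17.2 and LOC118282375 about 9.5. Over the 3 tetrazolidamide libraries the counts were about 40, 16.2 and 63.5 read pairs. The spread in the control group was wide for all 3 genes, with a coefficient of variation of 89.0%, 89.6% and 83.8%. In the cyantraniliprole group it was as wide, at 75.1%, 85.7% and 92.4%, and in the spinetoram group it was 17.2%, 6.78% and 11.4%. Control 3 set much of the control mean: without it spinetoram stood at 165%, 183% and 169% of control for LOC118269154, LOC118269215 and LOC118282375. Without control 3, emamectin benzoate stood at 0.820%, 1.09% and 0.880%, and tetrazolidamide at 1.68%, 1.26% and 7.15%.

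The 3 genes rose and fell together among the 9 libraries of control, cyantraniliprole and spinetoram. These 9 libraries spanned 9.87-fold in LOC118269154, 9.49-fold in LOC118269215 and 8.90-fold in LOC118282375. On log2(CPM + 1), the 2 desaturases had a Pearson r of 0.942 over the 9 libraries (exact permutation p = 0.000105, two-sided, adjusted p = 0.000315 over 3 pairs). Spearman's rho for this pair was 0.967 (exact permutation p = 0.000165, adjusted p = 0.000495). Reads may be shared between the 2 desaturases in counting, which can raise r for this pair in every setting, and this was not tested. The share of other gene pairs with a like r over these libraries was not computed. LOC118269154 and the elongase had r = 0.926 (exact permutation p = 0.000372, adjusted p = 0.000558) and rho = 0.950 (exact permutation p = 0.000353, adjusted p = 0.000530). LOC118269215 and the elongase had r = 0.901 (exact permutation p = 0.00132, adjusted p = 0.00132) and rho = 0.917 (exact permutation p = 0.00131, adjusted p = 0.00131). Control 2 was low and control 3 and cyantraniliprole 2 were high in all 3 genes.

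The relation was also computed without the 2 libraries farthest from the median of the first gene of each pair. These were control 2 and cyantraniliprole 3 for the pairs with LOC118269154, both low, and control 2 and cyantraniliprole 2 for the last pair, so control 3 stayed in throughout. Without them r was 0.869 (exact permutation p = 0.00774), 0.955 (exact permutation p = 0.000198) and 0.863 (exact permutation p = 0.0286) for the 3 pairs in the same order. Centred on each group's mean, r over the 9 libraries was 0.990, 0.920 and 0.936, so the relation was also present inside groups. No r over all 15 libraries is given as a test, since the choice of genes separates the 6 low libraries from the rest.

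**Figure D2:**
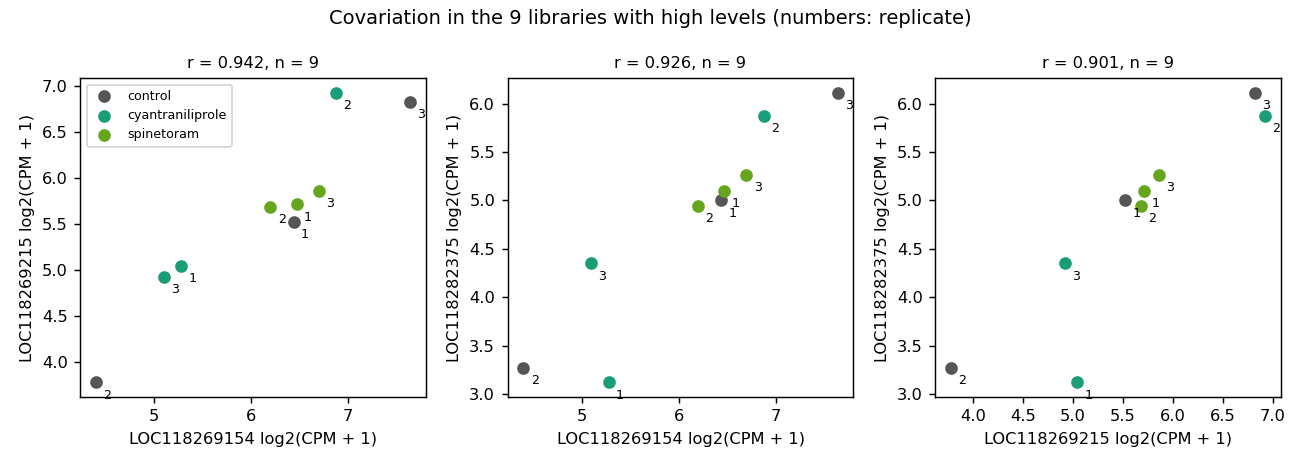
Levels of the 3 genes against each other in the 9 libraries of control, cyantraniliprole and spinetoram, both axes as log2(CPM + 1), with replicate numbers beside the points. The points lie along one diagonal in each panel, with r of 0.942, 0.926 and 0.901, with control 2 and cyantraniliprole 1 and 3 at the low end and control 3 and cyantraniliprole 2 at the high end.

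Levels of the 3 genes were set against each other per length, in FPKM, the fragments per length of transcript and per depth of library. The control means were 81.5 FPKM for LOC118269154, 48.1 for LOC118269215 and 36.5 for LOC118282375. The FPKM ratio of LOC118269215 to LOC118269154 was 0.556 to 0.666 in the controls and 0.586 to 0.734 with spinetoram. With cyantraniliprole it was 0.893 to 1.09, above every control and spinetoram library. The exact permutation test of cyantraniliprole against control gave p = 0.1, two-sided, the smallest that 3 against 3 libraries allow, and spinetoram against control gave an exact p = 0.6. This difference in ratio was noticed after the values were seen.

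The elongase held a near-constant proportion to LOC118269154 in 2 groups. The FPKM ratio of LOC118282375 to LOC118269154 was 0.436 to 0.544 in control and 0.461 to 0.519 with spinetoram, and it ran more widely, from 0.258 to 0.742, with cyantraniliprole. With tetrazolidamide it was 1.44 to 3.34, above all other libraries. With emamectin benzoate the same ratio ran from 0 to 0.994 and that of the 2 desaturases from 0.165 to 1.44, both from a handful of read pairs.

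**Figure D3:**
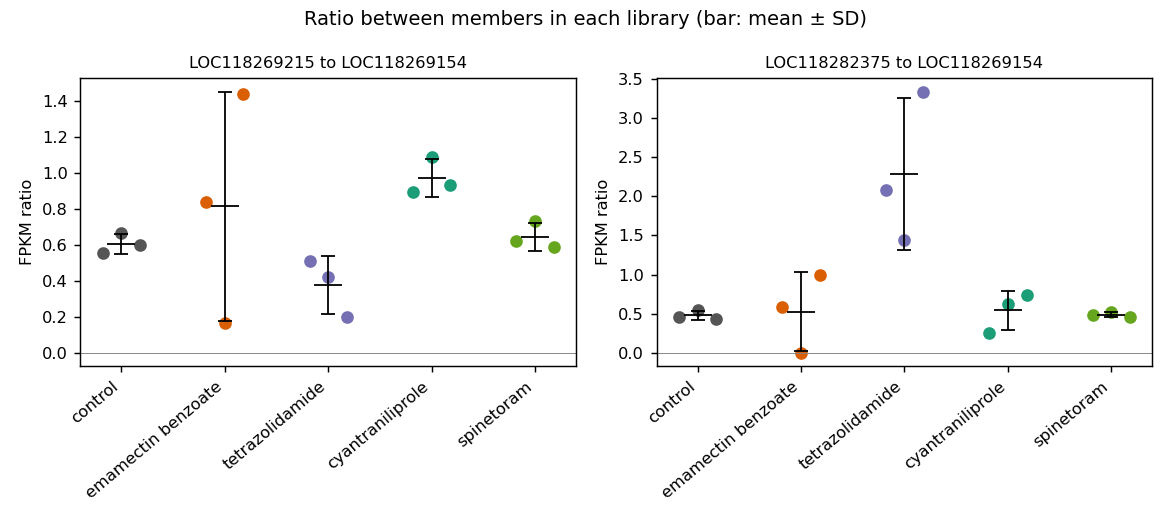
FPKM ratio of LOC118269215 (left) and of LOC118282375 (right) to LOC118269154 in each library, with mean ± SD per group. Cyantraniliprole lies at 0.893 to 1.09 on the left, above the controls at 0.556 to 0.666, and tetrazolidamide lies at 1.44 to 3.34 on the right, above all other libraries.

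The 2 desaturases sit in a stretch of the sequence where gene descriptions recur. They were 286653 bases apart with 7 genes between them, and 7 descriptions in the stretch were carried by 15 genes, each at least in a pair. The recurring descriptions were G protein-coupled receptor kinase 1, lysophospholipid acyltransferase 7-like, pyridoxal kinase, biogenesis of lysosome-related organelles complex 1 subunit 1, the desaturase, kazrin and the uncharacterized protein LOC111347762. Of the 15 genes, 7 were found in the RefSeq name table, whose build may differ, 1 for each description. Reads from near-identical copies can be split between them in counting, so the separate levels of the 2 desaturases are uncertain, and how alike their transcripts are was not tested. Their summed level does not depend on such a split: it was 131, 32.8 and 311 CPM in control, 1.38, 0.388 and 0.485 CPM with emamectin benzoate, and 1.63, 1.58 and 0.553 CPM with tetrazolidamide. The sum was 69.8, 237 and 62.6 CPM with cyantraniliprole and 139, 123 and 160 CPM with spinetoram, with the 6 low libraries again below the other 9.

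No gene next to the 3 passed the test as lower. Of the 4 genes on each side, 8 were tested around LOC118269154, 7 around LOC118269215 and 7 around LOC118282375, and 0 were lower by edgeR in any of the 4 comparisons. Of all tested genes, 1.78% were lower with emamectin benzoate, 11.4% with tetrazolidamide, 0.626% with cyantraniliprole and 1.12% with spinetoram, so a count of 0 in so few genes says little. At an unadjusted p under 0.05, 5 of the 7 tested around LOC118282375 were lower with emamectin benzoate, where DESeq2 called 0, and 1 was lower with tetrazolidamide, where DESeq2 and limma each called 1. Over all 15505 tested genes, 3070 had such an unadjusted p with emamectin benzoate and 5495 with tetrazolidamide, in either direction. Around the desaturases 0 were lower with either by edgeR's unadjusted p, DESeq2 or limma. In tetrazolidamide 4 of the 8 neighbours of LOC118269154 and 2 of the 7 of LOC118269215 were higher, against 10.9% of all tested genes. They included the pyridoxal kinase gene LOC118269216, an enzyme of vitamin B6 metabolism, which was 4.13 ± 1.0 CPM in control and 14.1 ± 3.4 CPM with tetrazolidamide (SD, n = 3; edgeR log2 fold change 1.77 ± 0.30 SE, adjusted p = 0.00205). Its counterpart LOC118269173 went from 2.32 ± 0.53 to 7.71 ± 3.8 CPM (edgeR log2 fold change 1.73 ± 0.42 SE, adjusted p = 0.0112), a call lost without tetrazolidamide 1 (edgeR adjusted p = 0.056). The calls on LOC118268873, LOC118269217, LOC118269138 and LOC118269214 were lost under 10, 8, 5 and 7 of 12 alternatives. The higher neighbours were pairs of like description, and whether they share reads was not tested. A further pyridoxal kinase gene, LOC118269219, lies inside the span of LOC118269215 on the opposite strand, and how strand was used in counting is not given in the sources used here. It was 1.58 ± 0.90 CPM in control, 1.57 ± 0.49 with emamectin benzoate and 3.02 ± 0.74 with tetrazolidamide.

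The elongase lies among many genes of its own family. Its sequence carried 32 elongase genes in the table, itself included, and 12 others lay within 250 kb. The next elongase on one side, LOC118261956, was 20.2 ± 0.22 CPM in control, 11.5 ± 4.6 with emamectin benzoate and 15.5 ± 4.5 with tetrazolidamide (edgeR adjusted p = 0.211 and 0.460). The next on the other side, LOC118282200, was 117 ± 52, 49.4 ± 4.8 and 70.8 ± 3.9 CPM in the same groups (edgeR adjusted p = 0.182 and 0.318).

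Other genes with the same descriptions had other levels. The table holds 8 other genes described as Delta(11) desaturase, and 0 of the 6 tested passed the threshold against control by edgeR with any insecticide. At an unadjusted p under 0.05, 0 were lower in any comparison, and 2, 1, 1 and 3 were higher with emamectin benzoate, tetrazolidamide, cyantraniliprole and spinetoram, where DESeq2 called 2, 1, 1 and 1 and limma 1, 0, 1 and 0. LOC118264952, with 105 CPM in control, was at 68.8 CPM with emamectin benzoate and 63.1 with tetrazolidamide. LOC118276125 was at or below 0.602 CPM in every library. LOC118264927 had 5 group means between 21.4 and 29.7 CPM. Its libraries varied more, at 24.8, 39.4 and 1.43 CPM with tetrazolidamide and 12.8, 38.6 and 12.9 CPM with spinetoram. LOC118264929 was 32.3, 14.3 and 23.0 CPM in control, 205, 58.6 and 65.7 CPM with emamectin benzoate and 128, 67.4 and 141 CPM with spinetoram, above all controls in both groups (edgeR adjusted p = 0.0590 and 0.0572). Of all tested genes, 13.6% with emamectin benzoate and 11.6% with spinetoram had all 3 libraries above all 3 controls. LOC118269922 reached 485 CPM in spinetoram 3 alone of its group, against 0.611 CPM in spinetoram 2.

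Among the other elongase 7-like genes, LOC118261900 was lower with tetrazolidamide, at 1.63 CPM against 11.5 CPM in control (edgeR log2 fold change -2.82, adjusted p = 0.0382). That call was lost under 7 of 13 alternatives, where the adjusted p reached 0.115. No other gene with that description passed the test in any comparison. LOC118275867 had group means from 48.8 CPM in control to 115 CPM with spinetoram (edgeR adjusted p = 0.0988).

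The wider set of fatty acid genes was listed by description, without the 3 genes. Matching by description also took in sterol desaturases, a cytochrome b561 gene and the cytochrome b560 subunit of succinate dehydrogenase. Of the 158 genes of the set in the table, 143 were tested. With emamectin benzoate 2 were higher and 3 lower (1.40% and 2.10%, against 2.31% and 1.78% of all tested genes). With tetrazolidamide 21 were higher and 12 lower (14.7% and 8.39%, against 10.9% and 11.4%). With cyantraniliprole 3 were higher and 1 lower (2.10% and 0.699%, against 1.99% and 0.626%), and with spinetoram 8 were higher and 0 lower (5.59% and 0%, against 2.89% and 1.12%). The median log2 fold change of the set was 0.20, 0.20, 0.38 and 0.50 in that order, beside 0.02, -0.07, -0.03 and -0.02 over all tested genes. Of the 14 other desaturases tested, 0 changed with emamectin benzoate by edgeR (5 at an unadjusted p under 0.05, 3 by DESeq2 and 1 by limma). With tetrazolidamide 1 rose, the cholesterol 7-desaturase LOC118281054, and 2 fell, the desaturase LOC118280447 and the sterol desaturase LOC118268457. Of 34 other elongases, 1 rose and 1 fell with emamectin benzoate, and 7 rose and 3 fell with tetrazolidamide. Of 31 fatty acyl-CoA reductases, 0 rose and 1 fell with emamectin benzoate, and 5 rose and 2 fell with tetrazolidamide.

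The 3 members of the set that fell with emamectin benzoate came from different steps of the pathway. The elongase 4-like gene LOC118263756 went from 73.6 ± 58 to 8.01 ± 5.4 CPM (SD, n = 3; edgeR log2 fold change -3.20 ± 0.61 SE, adjusted p = 0.0201). The fatty acyl-CoA reductase gene LOC118280297 went from 44.7 ± 64 to 0.429 ± 0.28 CPM (edgeR log2 fold change -6.70 ± 1.6 SE, adjusted p = 0.0415). The fatty acid synthase-like gene LOC118267601, of the enzyme that builds fatty acids from malonyl-CoA, went from 24.0 ± 36 to 0.142 ± 0.10 CPM (edgeR log2 fold change -7.38 ± 1.9 SE, adjusted p = 0.0465). With tetrazolidamide the same 3 genes also passed as lower (edgeR log2 fold change -2.26, -6.09 and -5.01, adjusted p = 0.0159, 0.0156 and 0.0439). Control 3 carries much of these folds, since LOC118280297 was 13.1, 2.05 and 119 CPM and LOC118267601 5.60, 1.14 and 65.3 CPM in the 3 controls. Without control 3 the control means of LOC118263756, LOC118280297 and LOC118267601 were 40.8, 7.60 and 3.37 CPM. The edgeR adjusted p was then 0.0296, 0.0747 and 0.0873 with emamectin benzoate and 0.0610, 0.0551 and 0.239 with tetrazolidamide. All 3 calls with emamectin benzoate were also lost without emamectin benzoate 1 or 3 (LOC118280297 and LOC118267601 also without emamectin benzoate 2 or control 1), with an edgeR adjusted p of up to 0.101, 0.152 and 0.172. Those with tetrazolidamide were also lost without tetrazolidamide 3 (LOC118263756 also without 2, LOC118267601 also without 1 or 2). All 6 calls were lost when only the 2 groups compared were fitted. Higher were 2 genes, the fatty acid-binding protein-like gene LOC118275067, from 27.0 ± 5.3 to 50.2 ± 9.9 CPM (edgeR adjusted p = 0.0318), and the elongase gene LOC118262014. The latter had no counts in control, and its group mean was at least 24.4-fold higher (floor of 3 read pairs over the group).

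The tetrazolidamide calls with the smallest p were of other genes, except LOC118275067, which rose with both. The long-chain fatty acid CoA ligase gene LOC118273647, whose enzyme activates fatty acids, rose from 125 ± 24 to 292 ± 35 CPM (SD, n = 3; edgeR log2 fold change 1.22 ± 0.16 SE, adjusted p = 0.000594). The cholesterol 7-desaturase gene LOC118281054, of an enzyme that acts on sterols and not on fatty acyl chains, rose from 3.32 ± 1.9 to 23.2 ± 1.7 CPM (edgeR log2 fold change 2.81 ± 0.38 SE, adjusted p = 0.000632). LOC118275067 rose to 68.0 ± 7.1 CPM (edgeR adjusted p = 0.000967). On the lower side were the desaturase gene LOC118280447, from 7.16 ± 1.7 to 3.56 ± 0.56 CPM, and the fatty acid-binding protein genes LOC118266601, from 62.3 ± 9.8 to 38.3 ± 5.9 CPM, and LOC118275711, from 10.4 ± 7.3 to 0.125 ± 0.11 CPM (edgeR adjusted p = 0.00586, 0.00798 and 0.00864).

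Of the members of the set called with cyantraniliprole or spinetoram, some were also called with the other insecticides. The fatty acyl-CoA reductase gene LOC118280404 rose from 1.57 ± 0.88 CPM to 13.1 ± 4.0 with cyantraniliprole and 19.1 ± 9.6 with spinetoram (SD, n = 3; edgeR adjusted p = 0.0362 and 0.0195), and to 7.55 CPM with tetrazolidamide (edgeR adjusted p = 0.0265). With cyantraniliprole the fatty acid-binding protein 1-like gene LOC118275187 rose from 9.22 ± 5.6 to 83.5 ± 16 CPM and the acyl-CoA-binding gene LOC118265764 fell from 37.1 ± 5.0 to 14.7 ± 3.7 CPM (edgeR adjusted p = 0.0457 and 0.00711). LOC118262014 passed with all 4 insecticides, and its group mean was at least 39.4-fold higher with cyantraniliprole, 45.1-fold with spinetoram and 23.2-fold with tetrazolidamide. Single libraries varied, at 2.84, 0 and 1.92 CPM with tetrazolidamide and 0.254, 1.2 and 3.54 CPM with emamectin benzoate. The call was lost under 9 of 12 alternatives with emamectin benzoate and 7 of 12 with cyantraniliprole. With spinetoram the elongase gene LOC118280831 rose from 39.1 ± 15 to 102 ± 36 CPM and LOC118275067 rose to 58.9 ± 11 CPM (edgeR adjusted p = 0.0270 and 0.0152).

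**Figure D4:**
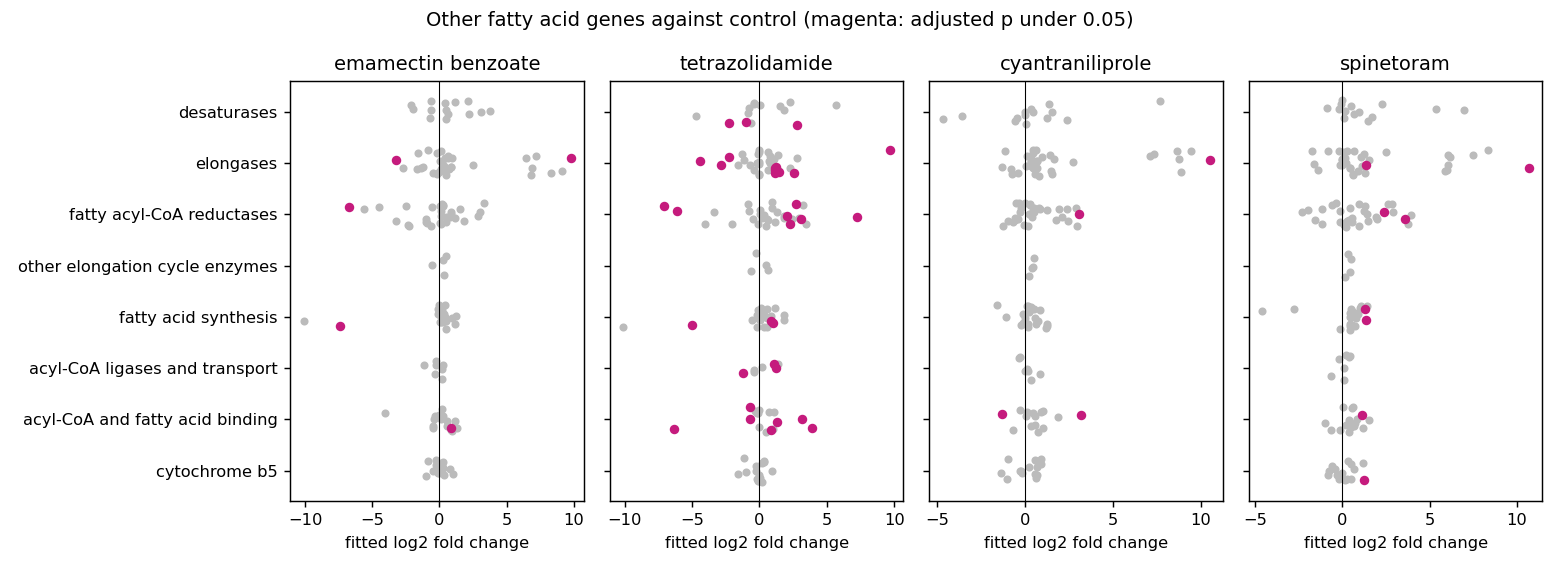
Fitted log2 fold change against control of the 143 other fatty acid genes tested, by list and insecticide, 1 point per gene, in magenta where the edgeR adjusted p was under 0.05. Called genes number 5 with emamectin benzoate, 33 with tetrazolidamide, 4 with cyantraniliprole and 8 with spinetoram, and fitted values of genes with no control counts depend on the prior count and are not bounds.

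Of the 143 genes of the fatty acid set, 6 (4.20%) had a likeness of at least 0.8 to the 3 genes across the 15 libraries, beside 1.49% of all tested genes. Likeness was the mean Pearson r of log2(CPM + 1) with the 3 genes, given as a description without p because the group differences fix much of it. The fatty acyl-CoA reductase LOC118280297 had the highest in the set at 0.909. It was followed by the fatty acid-binding protein LOC118275711 at 0.860, the reductase LOC118280723 at 0.846 and the very-long-chain 3-oxoacyl-CoA reductase-like gene LOC118274754, of the second step of elongation, at 0.845. LOC118280723 was 56.6 ± 26 CPM in control, 2.53 ± 4.0 with emamectin benzoate (edgeR adjusted p = 0.119) and 0.421 ± 0.53 with tetrazolidamide (edgeR adjusted p = 0.0126; SD, n = 3).

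Beside the 3 genes themselves, 46 tested genes (0.297%) had a mean r of at least 0.9 and 231 (1.49%) of at least 0.8. The 3 genes were most like each other, with an r of 0.975 to 0.995 between pairs of them. Their choice for low levels in the same 6 libraries fixes much of that r, so their rank carries no test. Next came LOC118265693, described as CUB and sushi domain-containing protein 3, with a mean r of 0.961, which was also among the 5 most like each of the 3 genes. Its level ran from 4.96 to 55.6 CPM in the 9 high libraries and from 0.187 to 1.75 CPM in the 6 low ones. The small heat shock protein genes LOC118277109 and LOC118276752, of a chaperone family, had 0.958 and 0.944. LOC118277109 was at 88.0 to 340 CPM in the 9 libraries and 8.56 to 19.4 CPM in the 6. The carboxypeptidase B-like gene LOC118266420 had 0.954, with 6.99 to 34.5 CPM in the 9 and 0.455 to 3.26 CPM in the 6. The delta-like gene LOC118267572, named for a Notch ligand, had 0.948, with 8.5 to 70.2 CPM against 0 to 1.38 CPM. The other 5 were LOC118267654 (cell wall protein DAN4-like, 0.943), LOC118262918 (a zinc finger protein, 0.942), LOC118279845 (nuclear hormone receptor HR3, 0.939) and the uncharacterized LOC118267445 (0.935) and LOC118267565 (0.934).

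**Figure D5:**
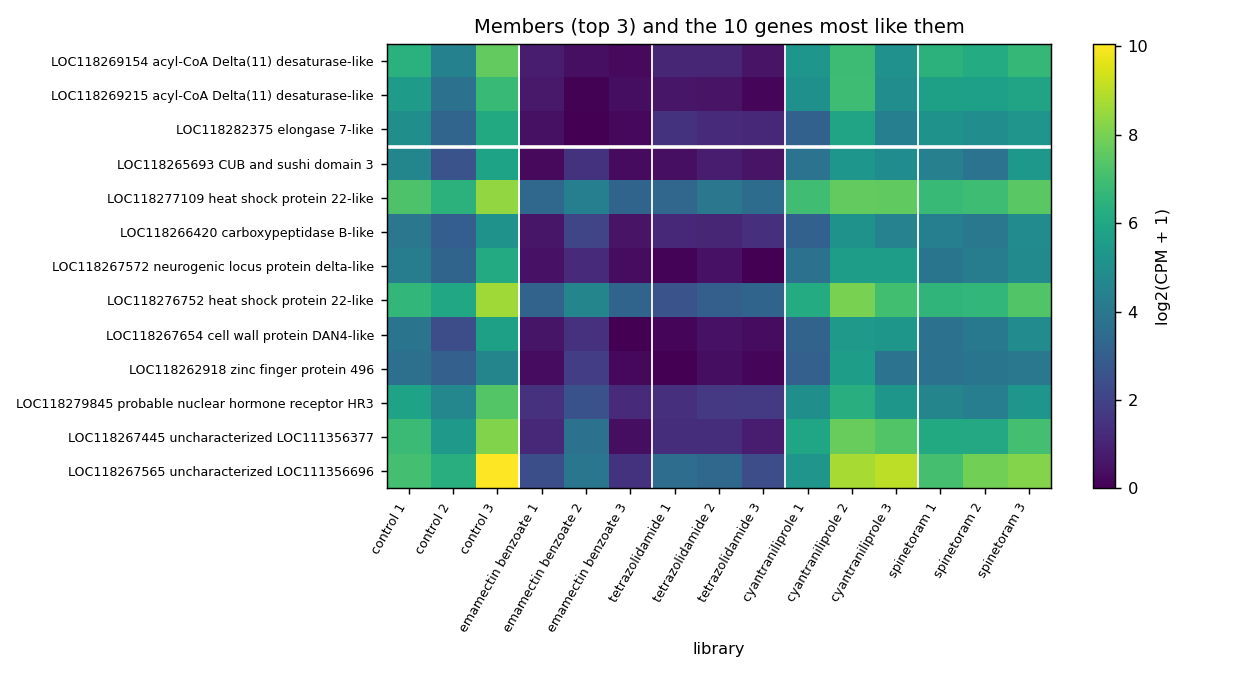
Level as log2(CPM + 1) of the 3 genes (top rows) and the 10 genes most like them in the 15 libraries, with white lines between groups. All 13 rows are darker in the emamectin benzoate and tetrazolidamide libraries, and control 3 is among the brightest columns.

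Some genes of the moulting hormone response were lower in the same groups. Of the 14 such genes, all tested, 4 fell and 0 rose with emamectin benzoate (1.78% and 2.31% of all tested genes), 4 fell and 1 rose with tetrazolidamide (11.4% and 10.9%), and 0 changed with cyantraniliprole or spinetoram by edgeR (2 and 5 at an unadjusted p under 0.05, 2 and 1 by DESeq2). The 14 were matched by description and include LOC118269906, described as protein tramtrack, which passed in no comparison by edgeR. Its mean was 44.8 CPM in control and 63.1 CPM with emamectin benzoate. HR3 is a nuclear receptor that is induced by ecdysone, the moulting hormone. The HR3 gene LOC118279845 was 56.1, 24.1 and 163 CPM in control, 1.67, 4.84 and 1.35 CPM with emamectin benzoate and 1.59, 2.19 and 2.24 CPM with tetrazolidamide. Its libraries in both groups lay below all controls, as did those of 11.7% and 18.4% of all tested genes (edgeR log2 fold change -4.95 ± 0.76 SE, adjusted p = 0.0098, and -5.33 ± 0.78 SE, adjusted p = 0.000869). With emamectin benzoate the call was lost without library 3 (edgeR adjusted p = 0.0543) and in the fit of the 2 groups alone (edgeR adjusted p = 0.116). This gene was named for its likeness to the 3 genes over these libraries, so its low levels and calls follow in part from that choice.

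The HR4 gene LOC118262489, another ecdysone-induced receptor, was 34.1 ± 18 CPM in control, 1.3 ± 1.3 with emamectin benzoate and 3.77 ± 2.0 with tetrazolidamide (SD, n = 3; edgeR adjusted p = 0.0120 and 0.00774). Its call with emamectin benzoate was lost without library 3 and in the fit of the 2 groups alone (edgeR adjusted p = 0.0516 and 0.116). A second HR4 gene, LOC118262341, was 26.2 ± 26, 1.23 ± 0.88 and 5.91 ± 2.3 CPM in the same groups and did not pass (edgeR adjusted p = 0.0689 and 0.192). The second HR3 gene, LOC118279815, and the E78C-like gene LOC118261897 passed with both insecticides. With emamectin benzoate these calls were lost under 4 and 5 of 12 alternatives, and with tetrazolidamide under 5 and 0 of 12. Rather than falling, the ecdysone-induced E74 gene LOC118263008 rose with tetrazolidamide from 11.6 ± 5.4 to 74.1 ± 26 CPM (edgeR adjusted p = 0.000559). The summed level of the 14 genes was 625 to 759 CPM in control, 351 to 411 with emamectin benzoate, 670 to 757 with tetrazolidamide, 499 to 566 with cyantraniliprole and 582 to 872 with spinetoram. Their part in the levels of the 3 genes was not tested, and the labels give no stage.

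Silk genes fell with tetrazolidamide. Of 10 silk and labial gland genes tested, 6 fell with tetrazolidamide and 0 rose (11.4% and 10.9% of all tested genes), and 0 changed by edgeR with emamectin benzoate, cyantraniliprole or spinetoram. At an unadjusted p under 0.05, 7, 1 and 2 were lower in that order, and DESeq2 called 7, 0 and 2 lower. The 6 were fibroin heavy chain-like genes, whose product is the main silk protein. LOC118274569 was 101, 97.3 and 956 CPM in control, 14.8, 14.9 and 16.5 CPM with emamectin benzoate (edgeR adjusted p = 0.0789) and 6.14, 5.85 and 2.21 CPM with tetrazolidamide (edgeR adjusted p = 0.00973). Summed over the 10 genes, the level was 365, 381 and 3120 CPM in control, 120 to 198 with emamectin benzoate, 85.9 to 176 with tetrazolidamide, 172, 383 and 3240 with cyantraniliprole and 317 to 1120 with spinetoram. Control 3 was high in both silk and the 3 genes, whereas cyantraniliprole 3, the highest in silk, was not high in the desaturases. Their part in the result was not tested.

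In the other tissue lists, the summed level of the 6 emamectin benzoate and tetrazolidamide libraries overlapped that of the other 9. Of the 2 oenocyte genes (cytochrome P450 4g, cells that make cuticle hydrocarbons), 0 changed by edgeR in any comparison (1 higher with tetrazolidamide and 1 with spinetoram at an unadjusted p under 0.05 and by DESeq2), and their sum was 27.9 to 125 CPM in control, 73.9 to 136 with emamectin benzoate and 106 to 149 with tetrazolidamide. The summed fat body storage genes were 3780 to 9530, 3700 to 6940 and 1520 to 5250 CPM in the same groups, and with tetrazolidamide 4 of the 16 tested fell and 2 rose (11.4% and 10.9% of all tested genes). Cuticle genes summed to 22500 to 34400 CPM in control, 41600 to 44400 with emamectin benzoate and 49900 to 67000 with tetrazolidamide. With cyantraniliprole the sum was 27900 to 30500 CPM and with spinetoram 37100, 30100 and 48600 CPM. Only spinetoram 3 of the other 9 libraries thus reached the cuticle range of the 6. With tetrazolidamide 73 of 155 tested cuticle genes rose and 5 fell (10.9% and 11.4% of all tested genes). Midgut genes summed to 51.6 to 374 CPM in control, 349 to 616 with emamectin benzoate and 237 to 1320 with tetrazolidamide, where 4 of 9 rose (10.9% of all tested genes) and 0 fell (0 by DESeq2 or at an unadjusted p under 0.05). The part of these lists in the levels of the 3 genes was not tested. Muscle genes, which check the label of whole body together with these lists, summed to 105000 to 251000 CPM over the 15 libraries, and of these lists none was at 0 as a whole in any library.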

How the data were processed

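Whole-body poly(A) RNA was sequenced in 15 libraries, with strand marked by dUTP per the labels. Per the submitters' processing notes, the tools were HISAT2 (2.0.4), StringTie (1.3.4d) and cutadapt (1.9), with DESeq2 and edgeR, each without a stated role. In the deposited file each gene has an estimated count per library, a whole number, with common low values of 4, 8 and 12 units, so 1 read pair is worth about 4 units. It also holds FPKM values that the authors computed, per the file headers. Totals were 50600821 to 77183281 units per library, and 27.26% of values were 0. The floor of 3 read pairs covers counting error only.

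The estimated counts were fitted with edgeR 4.0.16 in R 4.3.3 (TMM, filterByExpr with a minimum count of 10, quasi-likelihood, all 15 libraries, Benjamini-Hochberg over 15505 genes, threshold 0.05, two-sided). Levels are CPM with TMM factors. The fit was tested on simulated data. The simulation had less spread between libraries than these data and changed genes in tetrazolidamide only, so it does not show the accuracy of the fit here. DESeq2 1.42.0 and limma 3.58.1 were alternatives, with another filter, only 2 groups, a replicate block and each library left out. The 3 genes and the lists were chosen with earlier results of these data known. Named genes were the 3 genes, their 4 neighbours on each side by the table's own positions, the other Delta(11) and elongase 7 genes, the 10 most like genes, and up to 3 rising and 3 falling fatty acid genes with the smallest p per comparison. Further genes were named after their values were seen. A list for the pheromone gland found 0 genes.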

Additional observations from a re-analysis of the deposited data

How the results depend on the processing

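The 3 correlations kept their direction and their side of the threshold under every alternative run, with r of 0.9 to 0.971, 0.896 to 0.972 and 0.867 to 0.991 when 1 library was left out. The level against control without 1 library ran from 61.6% to 165% for LOC118269154 and from 67.2% to 183% for LOC118269215 with spinetoram. With cyantraniliprole it ran from 35% to 118% for LOC118269154, 54.1% to 210% for LOC118269215 and 37.7% to 143% for LOC118282375. The ratio of the 2 desaturases, cyantraniliprole minus control, was 0.365 in FPKM and 0.345 in estimated counts, alternatives chosen after seeing the data. Within a library the 2 ratios differ by little more than a fixed length factor, so their closeness is no separate check. For emamectin benzoate, tetrazolidamide, cyantraniliprole and spinetoram, the genes called (634, 3452, 406 and 622) ranged over 45 to 750, 2397 to 3413, 78 to 1214 and 35 to 1118 without 1 library, and the fatty acid genes (5, 33, 4 and 8) over 0 to 5, 23 to 40, 1 to 12 and 0 to 12. DESeq2 called 1783 genes for emamectin benzoate, 1532 for cyantraniliprole and 1880 for spinetoram, with 17, 17 and 24 fatty acid genes. A fit of only the 2 groups compared, which has fewer samples, called 0, 1583, 0 and 2 genes and 0, 16, 0 and 0 fatty acid genes by edgeR, where 2574, 4369, 2343 and 2209 genes and 28, 40, 19 and 20 fatty acid genes had an unadjusted p under 0.05. A stricter filter (FPKM of 5 in 3 libraries) called 2276 genes for tetrazolidamide, with 6663 tested. Limma-trend on log2(FPKM + 1) called 9 fatty acid genes for cyantraniliprole; the cause was not tested. Replicate numbers did not pair the libraries: 9 of 30 same-number pairs and 17 of 60 other pairs had a correlation over 0.1. With the replicate block, 364 genes and 2 fatty acid genes were called for emamectin benzoate and 1 fatty acid gene for cyantraniliprole. Of the calls on single genes examined, 0 of 16 for emamectin benzoate, 21 of 37 for tetrazolidamide, 0 of 4 for cyantraniliprole and 0 of 3 for spinetoram passed under every alternative; no direction reversed.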

Other observations

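Among the 9 genes whose lowest level in the 9 libraries of control, cyantraniliprole and spinetoram was over 5 times the highest in the 6 others, 3 were described as serine proteinase stubble, named after a fly gene needed for bristle and leg shape. These were LOC118279890, with a 14.7-fold gap, LOC118277943, with 7.69-fold, and LOC118279917, with 7.03-fold. Their highest level in the 6 low libraries was 0.147, 0.375 and 0.308 CPM, and their lowest in the other 9 was 2.16, 2.88 and 2.16 CPM. Genes described alike may share reads, and this was not tested. The uncharacterized LOC118270054 had a gap of 5.36-fold, from 3.64 to 19.5 CPM. The opposite pattern, with all 6 libraries above the other 9, was found in 21 tested genes (0.135%). These genes were chosen for the gap, so it carries no test.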
